A study of Mus musculus with 22 samples.

Results

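The comparison described here is that of GRDim with GRWT mice when both drank zinc, in the small intestine libraries that held smooth muscle transcripts. GRDim mice carry a point-mutant glucocorticoid receptor (GR) that forms dimers poorly, and GRWT mice carry the wild-type receptor. All mice were females on the FVB/NJ background, the GRDim mice were homozygous offspring of heterozygous crosses, and the GRWT controls came from the same crosses. The mutation is carried in all cells of the body, so that it is not particular to the gut. The mice of both groups drank water with 25 mM ZnSO4 for 7 days, and no library of the comparison came from a mouse on normal water. Of the 22 libraries of the series, those on zinc with over 100 CPM (counts per 1000000 counts) of Myh11, the smooth muscle myosin heavy chain, were taken. They are 6 libraries, namely GRDim replicates 1, 2 and 3 and GRWT replicates 1, 4 and 5, and values are given below in that order. Their Myh11 ran from 298 to 418 CPM. The other zinc libraries lay at 3.22 to 14.4 CPM. Myh11 is also a member of the smooth muscle gene list used below. The level of that list is therefore not independent of the choice of libraries. The question was which differences between the genotypes remained when both drank zinc.

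GR is a nuclear receptor that binds glucocorticoid hormones and then raises or represses genes, either as a dimer on its own DNA element or by contact with other transcription factors. Interferon-gamma, made by T cells and natural killer cells, and the type 1 interferons act through transcription factors that bind the gamma-activated site (GAS) and the interferon-stimulated response element (ISRE). In the ileum these factors drive GTPases that attack intracellular microbes, the machinery of antigen presentation and some mediators of necroptosis, a lytic form of cell death. Paneth cells, at the base of the crypts, secrete defensins and lysozyme, and absorptive enterocytes on the villi carry transporters and detoxifying enzymes. Metallothioneins bind zinc and rise with it.

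The total of the 6 libraries ran from 13677029 to 15620744 counts, within the range of 13149951 to 15620744 over the series. The 3 GRDim libraries and GRWT replicate 1 are labelled ileum, whereas GRWT replicates 4 and 5 carry the label IEC (intestinal epithelial cells, here scraped from the distal ileum). The genotype is therefore partly confounded with the tissue label. In all 6 libraries the summed level of 10 smooth muscle genes was 1710 to 2409 CPM after normalisation, and that of 10 epithelial genes was 20844 to 21430 CPM in the GRDim and 17154 to 19731 CPM in the GRWT libraries, without overlap. None of these 20 genes was called between the genotypes, but 4 epithelial genes were higher by the adjusted p-value alone, and the part of this shift in the epithelial results was not tested. GRWT replicate 1 stood apart in genes of B cell follicles. Ms4a1, which encodes CD20, was at 61.6, 0.776 and 0.45 CPM in the GRWT libraries and at 0.828, 0.91 and 1.69 CPM in the GRDim libraries, and Cr2, a complement receptor of follicular cells, had 511 counts in GRWT replicate 1 and 1 to 9 counts in the other 5. GRDim replicates 1 and 2 held liver transcripts, with Alb, which encodes serum albumin, at 154, 65.8 and 1.76 against 14.9, 2.0 and 6.75 CPM. In bulk samples, more cells of a type and more RNA per cell cannot be told apart. Nothing in the labels names the animals, so that p-values measure the spread between these libraries.

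Of 15947 genes tested, 388 were higher in GRDim mice on zinc (2.43%) and 314 were lower (1.97%), together 702 genes (4.4%). A gene was called when its adjusted p-value was under 0.05 and its log2 fold change was beyond 0.8. Fold changes are GRDim minus GRWT on the log2 scale with their standard error (SE), from edgeR's quasi-likelihood test with Benjamini-Hochberg adjustment over all genes tested. The adjusted p-value alone was under 0.05 for 2999 genes (18.8%), and the p-value before adjustment for 5119 genes. The 3 GRDim and 3 GRWT values did not overlap for 5411 genes (33.9%), and they did not overlap for 378 of the genes called higher and 307 of those called lower. Over all genes the median difference was -0.02. The large differences lay mostly on the side of GRDim: 82 genes were at least 4-fold higher and 22 at least 4-fold lower among those called. Of all called genes, 265 higher and 245 lower ones were protein-coding. Immunoglobulin variable segments, which share sequence, held 72 of the higher calls and none of the lower. When the tissue label was a covariate, 263 of the 388 and 207 of the 314 genes were still called, and with only the libraries labelled ileum, which leaves GRWT replicate 1 alone on its side, 174 and 106. The muscle-rich GRDim libraries are labelled ileum on zinc but IEC on water, so that the label does not follow muscle content across the drinks, and whether the labels are right was not tested. Of the 79 named genes that were called, 13 lost the call with the covariate (adjusted p = 0.0528 to 0.192), namely Ang4, Cyp2c66, Cyp3a44, Defa26, Etnppl, Fa2h, Gbp11, Mzb1, Pdk4, Plet1, Slc30a10, Tat and Ttr. The differences of several of these moved little, to -1.24 for Ang4 (from -1.29), -1.23 for Defa26 (from -1.32), -2.29 for Cyp3a44 (from -2.09) and -0.93 for Slc30a10 (from -0.98), whereas Etnppl went from -2.20 to -1.47, Mzb1 from 1.14 to 0.78 and Pdk4 from -1.03 to -0.68. With ileum labels only 26 lost it, the same 13 with Asprv1, B3gnt7, Cd177, Defa5, Derl3, Gm4841, Gsdmc2, Gsdmc3, Hapln1, Il18, Leap2, Pnliprp2 and Slc6a14. With 1 GRWT library on zinc, a call lost in that fit does not show that a gene depends on the label, and the differences were 4.63 for Hapln1 (from 4.59), 3.04 for Cd177 (from 2.91), -2.37 for Leap2 (from -2.50) and 1.23 for Gsdmc3 (from 1.00), against -0.41 for Cyp2c66 (from -1.27) and 0.41 for Mzb1.

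The greatest differences included an amino acid transporter and several interferon-induced genes. Slc6a14, a broad amino acid transporter (ENSMUSG00000031089, chromosome X, 21714896 to 21742355; positions are on GRCm38, mm10), had 59.3, 157 and 481 CPM in GRDim mice and 5.65, 1.94 and 2.17 CPM in GRWT mice. The groups were far apart, but the GRDim libraries themselves were widely spread, and the difference was 6.16 ± 1.17 (SE, adjusted p = 0.00871). It was not called in a fit of the 6 zinc libraries alone (adjusted p = 0.050) nor with only the libraries labelled ileum, among them 1 GRWT library on zinc, where the difference was 5.36 (adjusted p = 0.407). Ubd, which encodes the ubiquitin-like protein FAT10 that marks proteins for the proteasome (ENSMUSG00000035186, chromosome 17, 37193892 to 37196095), had 119, 172 and 176 CPM in GRDim mice and 7.55, 2.91 and 1.35 CPM in GRWT mice. All GRDim values far exceeded all GRWT values, a difference of 5.29 ± 0.49 (SE, adjusted p = 2.37e-04). Igtp, an immunity-related GTPase (ENSMUSG00000078853, chromosome 11, 58199556 to 58207591), had 147, 156 and 200 CPM in GRDim mice and 19.97, 22.4 and 13 CPM in GRWT mice and differed by 3.17 ± 0.22 (SE, adjusted p = 2.68e-05). The spread of Igtp within a group was small beside the gap between the groups.

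**Figure D1:**
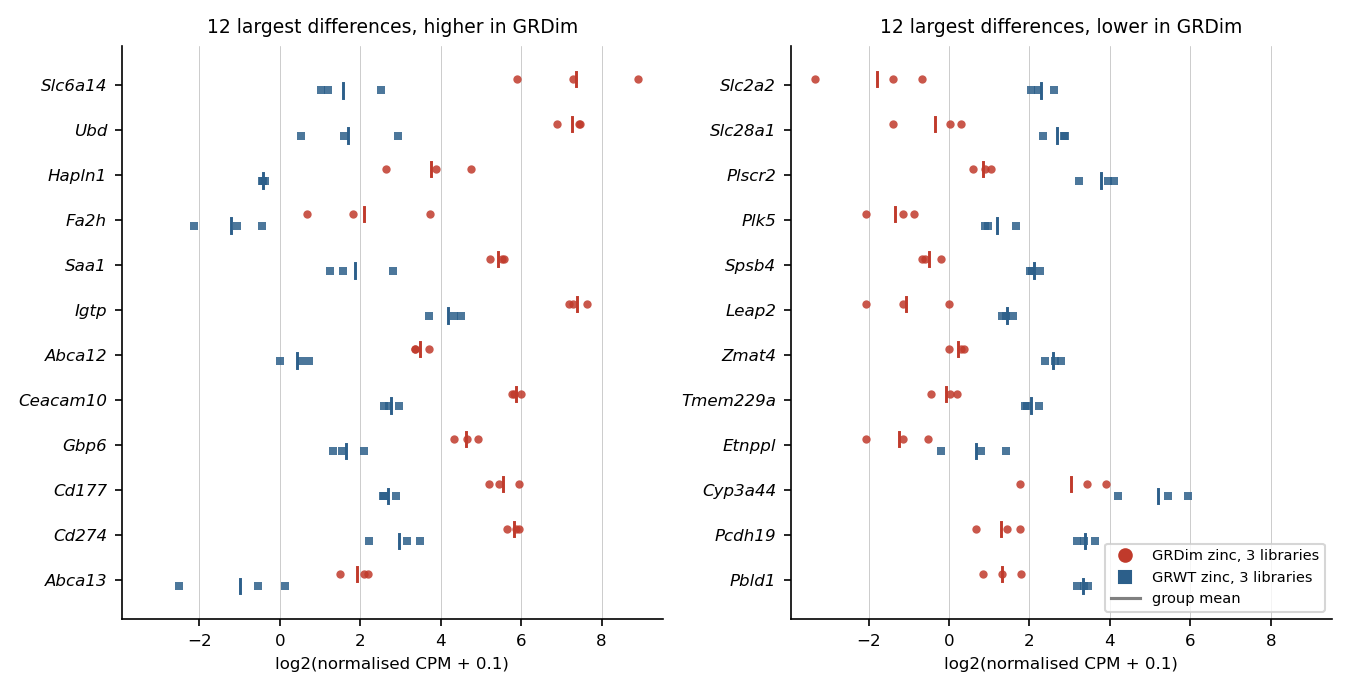
Normalised expression, as log2(CPM + 0.1), of the genes with the largest called differences between GRDim and GRWT mice on zinc, 12 higher (left) and 12 lower (right), with a point for each of the 3 GRDim (red) and 3 GRWT (blue) libraries and a bar at the group mean. The 24 genes were chosen for points that do not overlap, and the GRDim points of Slc6a14 and Fa2h are the most scattered.

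Among the other genes with the largest excess in GRDim mice, several encode surface or secreted proteins. Hapln1, a link protein of the extracellular matrix, had 6.17, 14.6 and 26.9 against 0.635, 0.647 and 0.675 CPM and differed by 4.59 ± 0.59 (SE, adjusted p = 0.00104). Saa1, an acute-phase apolipoprotein made by epithelium, had 47.3, 37.3 and 45.5 against 2.89, 2.26 and 6.9 CPM, a difference of 3.46 ± 0.36 (SE, adjusted p = 3.91e-04). Reads shared with its close copy Saa2 could not be assigned, and Saa2 itself had 21.1, 9.38 and 0.212 against 2.26, 0.259 and 1.12 CPM (adjusted p = 0.151). Ceacam10, a member of the carcinoembryonic antigen family, had 54.4, 56.2 and 63.6 against 6.49, 5.95 and 7.65 CPM, and its difference of 3.12 ± 0.14 (SE, adjusted p = 4.32e-08) was among the most precise. Cd177, Abca12 and Abca13, of which the last are lipid transporters of the ABC family, were higher by 2.91, 3.13 and 2.74. Abca13 ranged from 2.71 to 4.44 CPM in GRDim mice and from 0.0750 to 0.988 CPM in GRWT mice. Cd274, which encodes the checkpoint ligand PD-L1, had 50.3, 61.8 and 58.8 against 11.1, 8.86 and 4.57 CPM and differed by 2.79 ± 0.27 (SE, adjusted p = 2.07e-04). Fa2h, a fatty acid hydroxylase, had 1.5, 3.43 and 13.3 against 0.635, 0.129 and 0.375 CPM, and its difference of 4.00 ± 1.12 (adjusted p = 0.0408) was lost in 5 of the 6 fits that each left out 1 library, all but the one without GRDim replicate 1, with adjusted p-values of 0.0520 to 0.129.

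The immunity-related GTPases, which are induced by interferon and destroy vacuoles that hold microbes, were the list with the largest share called. Of 10 members tested, 9 were higher in GRDim mice on zinc and none was lower, with a median difference of 2.17. Their summed level was 646, 702 and 867 CPM in the GRDim libraries and 180, 199 and 138 CPM in the GRWT libraries before normalisation between libraries. The groups were thus well separated. Irgm2 (ENSMUSG00000069874, chromosome 11, 58199618 to 58222782) had 167, 181 and 196 against 30.5, 37 and 25.6 CPM and differed by 2.54 ± 0.17 (SE, adjusted p = 1.52e-05). Ifi47 had 150.5, 152 and 173 against 42.7, 48.4 and 37.4 CPM, with a difference of 1.88 ± 0.08 (SE, adjusted p = 5.81e-09), and Irgm1, a regulator of the other family members, had 99.3, 114 and 146 against 54.6, 57.9 and 47.8 CPM and a smaller difference of 1.16 ± 0.13 (SE, adjusted p = 1.79e-04). Tgtp1 and Tgtp2, near-identical copies whose shared reads were left out, were higher by 1.99 and 2.19, and Gm5431 and Gm4841 by 2.78 and 2.44. Igtp and Irgm2 overlap each other on the same strand, so that some of their reads cannot be told apart. Gvin1, a large GTPase, was the only member not called, with 1.05, 1.05 and 2.89 against 1.34, 6.86 and 0.60 CPM (adjusted p = 0.505). The number called was 9 in each fit that left out 1 library, 8 with the tissue label as covariate and 5 with only the libraries labelled ileum.

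Some promoters of genes called higher hold letters of the elements through which interferons act, and 5 are printed for that reason, of which Igtp and Irgm2 are immunity-related GTPases, Gbp7 a guanylate-binding protein, Ifit1 a type 1 interferon response gene and Psmb8 a gene of antigen presentation. The sequences are the 250 bases before the transcription start, 5′ to 3′ on the strand of the gene, from RefSeq on GRCm38.p6. All 5 genes lie on the plus strand. Capitals mark every match to a GAS (TTCNNNGAA) or to an ISRE (GAAA and GAAA with any 2 bases between them, or the reverse complement, TTTC and TTTC), searched on both strands.
Igtp, chr11:58199306-58199555: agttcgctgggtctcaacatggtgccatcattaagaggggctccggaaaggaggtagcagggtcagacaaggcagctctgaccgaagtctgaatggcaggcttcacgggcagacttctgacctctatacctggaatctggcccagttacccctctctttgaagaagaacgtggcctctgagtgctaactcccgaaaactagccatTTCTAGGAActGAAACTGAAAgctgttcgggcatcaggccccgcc
Irgm2, chr11:58214727-58214976: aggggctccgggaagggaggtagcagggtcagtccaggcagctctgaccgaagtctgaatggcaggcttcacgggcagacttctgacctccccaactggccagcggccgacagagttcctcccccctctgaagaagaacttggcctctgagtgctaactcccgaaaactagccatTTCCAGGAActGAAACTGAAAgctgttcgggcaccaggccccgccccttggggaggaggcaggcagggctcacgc
Gbp7, chr3:142530086-142530335: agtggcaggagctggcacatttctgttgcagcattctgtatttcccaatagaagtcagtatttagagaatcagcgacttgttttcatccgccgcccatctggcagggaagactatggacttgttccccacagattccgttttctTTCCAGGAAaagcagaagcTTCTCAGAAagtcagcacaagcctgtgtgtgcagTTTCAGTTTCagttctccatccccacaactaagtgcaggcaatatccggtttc
Ifit1, chr19:34640639-34640888: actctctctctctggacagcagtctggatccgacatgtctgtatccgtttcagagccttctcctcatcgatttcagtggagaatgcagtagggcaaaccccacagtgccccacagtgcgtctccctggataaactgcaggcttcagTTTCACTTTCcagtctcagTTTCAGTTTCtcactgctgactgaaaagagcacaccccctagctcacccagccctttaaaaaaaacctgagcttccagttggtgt
Psmb8, chr17:34197945-34198194: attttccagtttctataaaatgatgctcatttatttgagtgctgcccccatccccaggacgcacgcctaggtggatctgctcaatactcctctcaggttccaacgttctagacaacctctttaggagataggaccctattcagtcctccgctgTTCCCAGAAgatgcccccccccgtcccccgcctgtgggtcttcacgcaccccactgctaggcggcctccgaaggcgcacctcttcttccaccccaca
In Igtp the GAS match lies at -45 to -37 from the start and the ISRE match at -34 to -25, and in Irgm2 the same arrangement lies at -75 to -67 and -64 to -55. The Igtp and Irgm2 sequences share an identical run of 55 bases. Gbp7 holds GAS matches at -106 and -87 and an ISRE match at -53, Ifit1 holds ISRE matches at -104 and -85 and no GAS, and Psmb8 holds a GAS match at -97.

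A promoter sequence was at hand for 11398 of the 15947 genes tested, including 194 of those called higher and 204 of those called lower. An ISRE match stood in 25 of the 194 genes called higher (12.9%, 95% Wilson interval 8.88 to 18.3), in 10 of the 204 called lower (4.90%) and in 392 of all 11398 (3.44%). A GAS match stood in 37 of the genes called higher (19.1%, interval 14.2 to 25.2), in 13 of those called lower (6.37%) and in 829 of all (7.27%). The lists were searched over all members with a sequence, called or not. Of the guanylate-binding proteins, 5 of 5 held an ISRE match, and only Gbp7 of these was called. Of the immunity-related GTPases 5 of 7 held an ISRE and 4 of 7 a GAS match. In the other lists searched the numbers were 3 of 17 (ISRE) and 1 of 17 (GAS, in Psmb8) for MHC class I genes, 2 of 14 and 5 of 14 for interferon-gamma signalling, 2 of 16 and 1 of 16 for cytochrome P450 genes and 0 of 9 and 2 of 9 for Paneth cell genes. A strict form of the palindromic GR element (GNACA and TGTNC with any 3 bases between them, on both strands) stood in none of the genes called higher, which allows a share of up to 1.94%, in 1 of those called lower (0.490%) and in 42 of all (0.368%). Genes of 1 family can share promoter sequence and are not independent, and a match of letters is not a bound site.

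The guanylate-binding proteins, GTPases that coat and break open microbial vacuoles, were also higher in part. Of 11 tested, all 11 were positive on zinc, 5 were called higher and none lower, with a median of 0.87, whereas 10 were higher on water with a median of 1.74. Gbp6 had 30.3, 25.1 and 19.9 CPM in GRDim mice and 2.82, 4.14 and 2.4 CPM in GRWT mice, and Gbp8 had 28.8, 36.3 and 33.8 CPM in GRDim mice and 6.63, 7.44 and 5.7 CPM in GRWT mice. Neither gene overlapped between the groups, and the differences were 2.99 ± 0.27 (adjusted p = 6.10e-05) and 2.32 ± 0.12 (adjusted p = 2.08e-08). Gbp7 had 48.1, 56.7 and 66.7 against 22.2, 21.1 and 19.3 CPM, a difference of 1.45 ± 0.11 (SE, adjusted p = 6.21e-07). Gbp4 was higher by 0.87 (adjusted p = 0.0326), while Gbp2, with 49.1, 59.2 and 62.6 against 35, 39.97 and 30.3 CPM, differed by 0.70 and remained under the fold threshold (adjusted p = 0.00248). Gbp10 had 0.752, 0.70 and 0.353 against 0.282, 0.194 and 0 CPM and an adjusted p of 0.083. The call of Gbp11, at 1.28, 1.05 and 0.282 against 0.282, 0.194 and 0.225 CPM, was lost in 5 of 6 fits that left out a library, all but the one without GRDim replicate 3 (adjusted p = 0.0659 to 0.171). Gbp6 overlaps Gm43302 and Gbp8 overlaps Gbp4 and Gbp9, so that their reads may be shared.

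Of 21 genes of interferon-gamma signalling, 13 were higher in GRDim mice on zinc and none was lower, with a median of 1.05. The cytokine itself was near the limit of detection. Ifng had 14, 14 and 11 counts in the GRDim libraries and 1, 1 and 0 counts in the GRWT libraries, a ratio of 19.9 with a counting interval of 5.15 to 170. The interval covers counting error only. The transcription factor Irf1 had 305, 355 and 341 against 169, 163 and 158 CPM, with a difference of 1.03 ± 0.08 (SE, adjusted p = 1.11e-06). Nlrc5, the activator of MHC class I genes, had 31.5, 34.7 and 36.9 against 8.82, 5.63 and 3.45 CPM and differed by 2.52 ± 0.24 (SE, adjusted p = 1.00e-04). Socs1, an inhibitor of the pathway that is induced by it, had 6.17, 8.47 and 10.8 against 3.32, 2.39 and 2.62 CPM and was higher by 1.61. Ido1, which degrades tryptophan, had 117, 167 and 139.97 CPM in GRDim mice and 25.3, 23.9 and 30.2 CPM in GRWT mice, a difference of 2.42 ± 0.12 (SE, adjusted p = 3.40e-07). Nos2, the inducible nitric oxide synthase, had 236, 269.9 and 182 against 33.2, 52 and 49.3 CPM and was higher by 2.35 (adjusted p = 0.00428). The chemokines Cxcl9 and Cxcl10, which attract T cells, were higher by 1.48 and 0.94. The receptor chains Ifngr1 and Ifngr2 and the kinases Jak1 and Jak2 lay between -0.29 and 0.12, and none of them was called.

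The response ascribed to type 1 interferon was much less uniform. Of 40 genes tested, 7 were higher, 1 was lower and 32 were not called, with a median of 0.18. Ifit1bl1 had 206, 205 and 222 CPM in GRDim mice and 30.8, 31.6 and 33.3 CPM in GRWT mice and differed by 2.73 ± 0.13 (SE, adjusted p = 3.40e-07). Ifit1, which binds viral RNA, had 68.3, 65.3 and 54.6 against 24.3, 28.4 and 12.1 CPM, a difference of 1.53 ± 0.25 (SE, adjusted p = 0.00347), and Ifit2 had 19.4, 17.6 and 26.7 against 8.4, 8.73 and 5.47 CPM, a difference of 1.49 ± 0.25 (SE, adjusted p = 0.00322). Rsad2, Parp14 and Herc6 were higher by 1.23, 1.18 and 1.10. Typical members such as Isg15 (16, 13.7 and 14.8 against 12.9, 17.1 and 6.52 CPM; adjusted p = 0.606), Oas3 (0.15; adjusted p = 0.736) and Ifih1 (0.15; adjusted p = 0.226) were not called. Oas2 was the lower gene, with 1.35, 0.98 and 0.988 against 5.36, 3.75 and 1.27 CPM and a difference of -1.65. Its call was lost in 5 of the 6 fits that left out a library, all but the one without GRWT replicate 5 (adjusted p = 0.0592 to 0.102).

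Genes of both arms of antigen presentation were called higher in GRDim mice in these muscle-rich libraries, though not all members were. For MHC class I, which shows peptides from within the cell, 9 of 20 genes were called higher, 18 had an adjusted p-value under 0.05 with a positive difference, and the median was 0.79. The peptide transporter Tap1 had 132, 149 and 160.5 CPM in GRDim mice and 47.1, 37.7 and 31.7 CPM in GRWT mice, a difference of 1.92 ± 0.17 (SE, adjusted p = 9.20e-05). The immunoproteasome subunit Psmb8 had 196, 196 and 203 against 71.5, 73.9 and 58 CPM and differed by 1.55 ± 0.09 (SE, adjusted p = 2.29e-07), and Psmb9 had 125, 138 and 154 against 51.9, 46.9 and 39.4 CPM and differed by 1.59 ± 0.13 (SE, adjusted p = 3.08e-05). None of these values overlapped between the groups. The chains themselves differed less, with H2-K1 at 1012, 1088 and 1082 against 659.8, 701 and 617 CPM and B2m at 2747, 2841 and 2744 against 1546, 1743 and 1499 CPM. H2-K1 lay below the fold threshold at 0.69 (adjusted p = 1.01e-05), and B2m at 0.80 (adjusted p = 7.10e-06) lay just below it.

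For MHC class II, which shows extracellular peptides to helper T cells, 8 of 10 genes tested were higher and the median was 1.52. Ciita, the master regulator of the class, had 107, 119.9 and 117 against 50.5, 32.3 and 26.8 CPM, a difference of 1.65 ± 0.25 (SE, adjusted p = 0.00296). H2-Aa had 951, 1027 and 948 CPM in GRDim mice and 344, 367 and 249 CPM in GRWT mice. The groups did not overlap, and the difference was 1.61 ± 0.22 (SE, adjusted p = 0.00117). H2-Eb1 had 36.9, 41.5 and 35.2 against 12.1, 11.8 and 7.05 CPM and differed by 1.87, H2-DMb1 differed by 1.63 and Cd74, the invariant chain, by 1.41. The members not called were H2-Oa and H2-Ob, which are restricted to B cells and some dendritic cells. H2-Ob had 2.78, 3.57 and 4.37 against 21, 3.36 and 3.3 CPM and was highest in GRWT replicate 1, the library with the follicle transcripts. The number called was 8 in each fit that left out a library and with the tissue label as covariate. On water the same list had a median of 1.15 with 8 genes called.

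**Figure D2:**
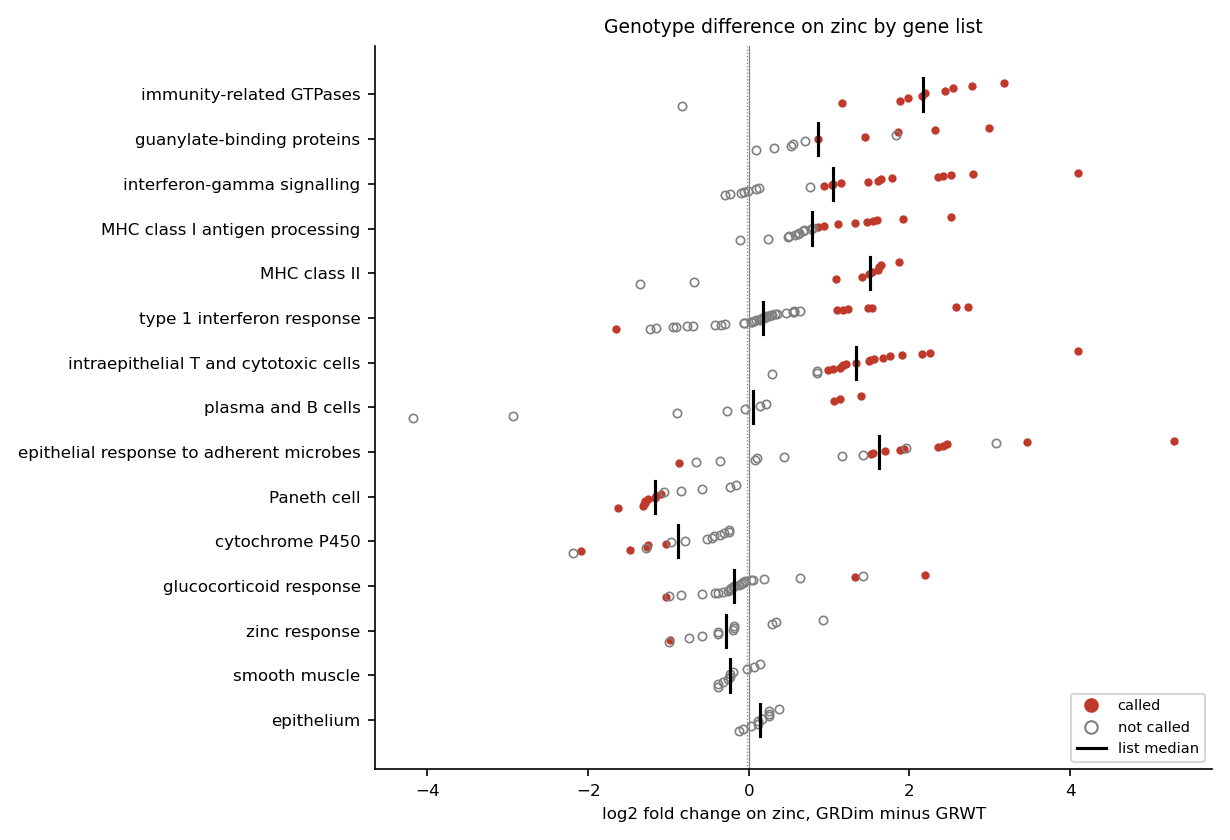
Log2 fold change between GRDim and GRWT mice on zinc for the members of each gene list, with a point per gene, filled where the gene was called, and a bar at the median of the list. Immunity-related GTPases, MHC class II genes and T cell genes have medians of 2.17, 1.52 and 1.33 with 9 of 10, 8 of 10 and 19 of 19 members to the right of 0, and all 14 Paneth cell genes tested lie to the left with a median of -1.16.

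Genes of intraepithelial T cells and cytotoxic cells were higher in GRDim mice, with 16 of 19 called, none lower and a median of 1.33. Their summed level was 390, 406 and 382 CPM in the GRDim libraries and 149, 105 and 113 CPM in the GRWT libraries after normalisation. Ccl5, a chemokine of activated cytotoxic cells, had 67.5, 76.1 and 64.6 CPM in GRDim mice and 14.4, 14.3 and 14.7 CPM in GRWT mice. Both groups were tight, and the difference was 2.26 ± 0.14 (SE, adjusted p = 1.98e-06). Gzma and Gzmb, granule proteases, had 70.8, 68.6 and 68.1 against 16.9, 14.3 and 15.3 CPM and 40.03, 43.8 and 46.6 against 11.6, 12 and 15.1 CPM, with differences of 2.16 and 1.76. Cd8a had 39.9, 38.9 and 32 against 12.2, 7.89 and 9.52 CPM and differed by 1.90 ± 0.14 (SE, adjusted p = 2.32e-06), Cd3g by 1.51 and Itgae, the integrin that holds these cells in the epithelium, by 1.55. Cd3d (0.85; adjusted p = 0.0982), Lck (0.85; adjusted p = 0.143) and Xcl1 (0.29; adjusted p = 0.55) were not called. Lists for macrophages and dendritic cells held no called member of 14. With all 22 libraries and the Myh11 split as covariate, 1 T cell gene was called. Il17a, the cytokine of another T cell subset, had 5, 6 and 5 counts in GRDim and 0 in all 3 GRWT libraries, so that it was at least 3.93-fold higher by the lower limit of the exact counting interval over the group totals.

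Several transcripts of antibody-secreting cells were higher, while members of the list of plasma and B cell genes went both ways, with 5 of 10 positive and a median of 0.047. The list summed to 4294, 4199 and 5127 CPM in GRDim and 2487, 2119 and 1697 CPM in GRWT libraries, and its lowest member, Ms4a1, was negative through GRWT replicate 1 alone. Jchain, which joins IgA into dimers, had 3627, 3532 and 4457 CPM in GRDim mice and 1735, 1561 and 1116 CPM in GRWT mice, a difference of 1.397 ± 0.17 (SE, adjusted p = 2.97e-04). Igha, the IgA heavy chain, had 7816, 8906 and 11438 against 4075, 3820 and 2821 CPM and was higher by 1.39 (adjusted p = 5.49e-04). Pigr, the epithelial receptor that carries dimeric IgA into the lumen, had 6379.6, 6573 and 6039 against 2006, 2139 and 2468 CPM and differed by 1.52 ± 0.08 (SE, adjusted p = 2.96e-08). All 3 genes separated the genotypes without overlap. Of 174 immunoglobulin variable segments tested, 72 were higher and none was lower, with a median of 1.34. Segments share sequence, so that their counts depend on which reads mapped to 1 place only. Within that list 3 of 10 genes were called higher, and the call of Mzb1 (1.14 ± 0.33 (adjusted p = 0.0463)) was lost in 5 of 6 fits that left out a library, all but the one without GRWT replicate 1 (adjusted p = 0.0699 to 0.139).

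The epithelial response to adherent microbes, a list of oxidases, acute-phase proteins and antimicrobial genes, held 10 higher genes of 20 and 1 lower gene, with a median of 1.62. Duox2, the dual oxidase that makes hydrogen peroxide at the cell surface, had 96.7, 104 and 109 CPM in GRDim mice and 27.9, 24.6 and 28.9 CPM in GRWT mice, a difference of 1.93 ± 0.20 (SE, adjusted p = 2.72e-04). Its maturation factor Duoxa2 had 11.1, 13.4 and 13.5 against 2.26, 2.13 and 2.47 CPM and differed by 2.47 ± 0.28 (SE, adjusted p = 2.14e-04), and Duoxa1, which overlaps it, by 1.55. Nox1 had 22, 18.3 and 27.5 against 4.02, 5.95 and 8.4 CPM and was higher by 1.89. By contrast the lectin genes of the same response were not called, with Reg3g at 1066, 1089.5 and 1143 against 935, 819 and 1329.5 CPM (adjusted p = 0.794) and Reg3b at -0.65 (adjusted p = 0.0606). Pla2g2a, a phospholipase of Paneth cells, was the lower gene, with 885, 783 and 628 against 1407, 1158 and 1612 CPM and a difference of -0.86 (adjusted p = 0.00135). B3gnt7, a glycosyltransferase, was the only called member of 15 goblet cell genes, with 56.7, 85.5 and 77.7 against 27, 22.6 and 25 CPM and a difference of 1.56 ± 0.21 (SE, adjusted p = 0.00111), while the mucin gene Muc2 was at -0.062 (adjusted p = 0.815).

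Among 13 genes of necroptosis and death receptors, 2 were higher and none lower. Zbp1, a nucleic acid sensor that starts necroptosis, had 68.2, 78.9 and 80.3 CPM in GRDim mice and 16.1, 13.5 and 8.25 CPM in GRWT mice. The groups were far apart, and the difference was 2.58 ± 0.18 (SE, adjusted p = 1.75e-05). Mlkl, the pore-forming effector, had 27.8, 29.1 and 32.7 CPM in GRDim mice and 14.2, 11.9 and 11.9 CPM in GRWT mice, a difference of 1.24 ± 0.09 (SE, adjusted p = 5.21e-07). Ripk3, the kinase between them, had 32.7, 39.9 and 46.4 against 28.9, 24.6 and 29.8 CPM and differed by 0.52, below the fold threshold (adjusted p = 0.00378). Ripk1 and Casp8 were at 0.058 and 0.13 and were not called (adjusted p = 0.505 and 0.179). Of 19 genes of inflammasomes and gasdermins, 3 were higher and 1 was lower. Casp4, a sensor of bacterial lipopolysaccharide inside the cell, had 86.1, 80.8 and 72.9 against 37.2, 34.5 and 36.4 CPM, a difference of 1.15 ± 0.07 (SE, adjusted p = 4.32e-08), and Il18, the cytokine released downstream, was lower with 30.02, 21.7 and 18.1 against 51.4, 46 and 73.3 CPM and a difference of -1.29 ± 0.26 (SE, adjusted p = 0.0097). The gasdermins Gsdmc2 (0.95) and Gsdmc3 (1.00) fell below the fold threshold without GRDim replicate 3, at 0.66 and 0.76, and Gsdmc2 was not called without GRWT replicate 1 either (adjusted p = 0.0571).

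The largest deficits in GRDim mice included 2 transporters of absorptive cells. Slc2a2, the glucose transporter GLUT2 (ENSMUSG00000027690, chromosome 3, 28697903 to 28731359), had 0.527, 0.28 and 0 CPM in GRDim mice and 4.52, 4.01 and 6.0 CPM in GRWT mice. It was not counted at all in GRDim replicate 3, and the fitted difference was -4.15 ± 0.61 (SE, adjusted p = 9.48e-04). Slc28a1, a nucleoside transporter, had 1.13, 0.91 and 0.282 against 4.94, 7.11 and 7.27 CPM, a difference of -3.05 ± 0.38 (SE, adjusted p = 1.15e-04). Plscr2, a scramblase family member, had 1.96, 1.75 and 1.41 against 17.1, 15.5 and 9.37 CPM and differed by -3.03 ± 0.44 (SE, adjusted p = 0.0013), and Leap2, a secreted antagonist of the ghrelin receptor, had 0.903, 0.35 and 0.141 against 2.4, 2.91 and 2.55 CPM and differed by -2.50 ± 0.45 (SE, adjusted p = 0.00159). Spsb4, which overlaps Gm16010, had 0.527, 0.56 and 0.776 against 4.09, 4.72 and 3.97 CPM and differed by -2.76 ± 0.33 (SE, adjusted p = 5.55e-05). Plk5, Zmat4, Tmem229a, Pcdh19 and Pbld1 were lower, with differences of -2.80, -2.47, -2.20, -2.09 and -2.01, and adjusted p-values of 2.74e-04, 2.73e-06, 1.00e-04, 2.66e-05 and 3.93e-05. Of the 12, Etnppl (-2.20) lost its call without GRDim replicates 2 or 3 or GRWT replicate 4 (adjusted p = 0.0591 to 0.0829). Its differences were then -1.72 to -2.17. Cyp3a44 (-2.09) lost its call without GRDim replicates 1 or 3 or GRWT replicates 1 or 5 (adjusted p = 0.0734 to 0.102). Its differences were then -1.67 to -2.16. In Cyp3a44 the values were 10.6, 15 and 3.32 against 43.7, 18.4 and 61.3 CPM, which lie close to each other at 15.0 and 18.4 CPM.

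Of 16 cytochrome P450 genes tested, enzymes that oxidise drugs, steroids and fatty acids, 5 were lower in GRDim mice and none was higher, with a median of -0.88. Cyp4b1 had 14.3, 12.5 and 10.9 CPM in GRDim mice and 30.5, 35.5 and 38.8 CPM in GRWT mice. The groups did not overlap, and the difference was -1.48 ± 0.11 (SE, adjusted p = 6.21e-07). Cyp2d26 had 94.5, 91.5 and 71 against 173, 219 and 219 CPM and differed by -1.25 ± 0.16 (SE, adjusted p = 6.19e-04), and Cyp27a1, which starts the acidic pathway of bile acid synthesis, by -1.03 ± 0.10 (adjusted p = 8.45e-06). Cyp2c66 was lower (-1.27), a call lost without GRDim replicate 3, GRWT replicate 4 or GRWT replicate 5 (adjusted p = 0.0559 to 0.0699). Cyp1a1, the main target of the aryl hydrocarbon receptor, had 0.903, 0.77 and 1.06 against 3.95, 6.34 and 2.17 CPM without overlap but was not called (adjusted p = 0.0734). On water 13 of the same 16 genes were lower, with a median of -1.88. In steroid metabolism 2 of 15 genes tested were lower. Hsd3b3 had 4.51, 4.55 and 4.94 against 14.3, 17.3 and 18.1 CPM and differed by -1.82 ± 0.21 (adjusted p = 5.31e-05). It overlaps Zfp697, so that their reads may be shared. Hsd17b13 had 106, 98.7 and 84.6 against 185, 210.1 and 189 CPM and differed by -1.02 ± 0.10 (adjusted p = 3.26e-05).

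Paneth cell genes were lower in GRDim mice: 9 of 14 tested were called, none was higher and the median was -1.16. Lyz1, the Paneth cell lysozyme, had 2320.1, 1597 and 858 CPM in GRDim mice and 4105, 3050.2 and 4531 CPM in GRWT mice. The angiogenin Ang4 had 314, 231 and 126 against 536, 488 and 619 CPM, and the intelectin Itln1 had 685, 507 and 233 against 1100.1, 898 and 1205 CPM. In all 3 genes the highest GRDim value was that of replicate 1 and the lowest that of replicate 3, and the groups did not overlap. The differences were -1.29 ± 0.32 (adjusted p = 0.0248) for Lyz1, -1.29 ± 0.28 (adjusted p = 0.0132) for Ang4 and -1.17 ± 0.34 (adjusted p = 0.0437) for Itln1. Pnliprp2, a lipase, had 43.6, 35.9 and 17.6 against 97.2, 92.3 and 109.6 CPM and differed by -1.63 ± 0.26 (SE, adjusted p = 0.00352), while Mmp7, which activates defensins, was at -0.58 (adjusted p = 0.0122) and Lyz2, the lysozyme of macrophages, at -0.15 (adjusted p = 0.748). Alpha-defensin genes are near-identical, so that counts of single members such as Defa5 (-1.31) and Defa26 (-1.32) are uncertain, and Defa26 was not called without GRDim replicate 2, GRWT replicate 1 or GRWT replicate 5 (adjusted p = 0.0544 to 0.0759). The number of Paneth cell genes called fell to 4 with the tissue label as covariate, to 2 in a fit of the 6 zinc libraries alone, to 1 with all 22 libraries and to 0 with only the libraries labelled ileum, and to 5 without GRDim replicate 2, GRWT replicate 1 or GRWT replicate 5.

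Of the genes that zinc and GR are best known to control, few were called between the genotypes on zinc. Nr3c1, which encodes GR, had 304, 314 and 268 CPM in GRDim mice and 281, 342 and 313 CPM in GRWT mice, overlapping groups with a difference of -0.078 ± 0.07 (SE, adjusted p = 0.505). The sign of that difference turned when the tissue label was a covariate (0.011) or when only the libraries labelled ileum were used (0.076). The mutation is a single base, so that the level of Nr3c1 does not check the genotype labels. Mt1, a metallothionein, had 1442, 1753 and 1356 CPM in GRDim mice and 2481, 2489 and 1814 CPM in GRWT mice, and Mt2 had 200.1, 306 and 238 against 575, 547 and 359 CPM. All GRDim values of both genes lay below all GRWT values, but neither was called (adjusted p = 0.232 and 0.10). Slc30a2, the exporter ZnT2, had 171, 213 and 140.2 against 285, 311 and 278 CPM and differed by -0.74 ± 0.15 (SE, adjusted p = 0.0090), under the fold threshold. Slc39a4, the importer ZIP4, had 60.7, 48.3 and 53.5 against 51.7, 31.8 and 44.7 CPM (adjusted p = 0.211), and the zinc sensor Mtf1 differed by 0.29 ± 0.07 (adjusted p = 0.00769). Of 12 zinc response genes 1 was called, the exporter gene Slc30a10, with 40.4, 43.6 and 21.3 against 69.9, 65.5 and 72.2 CPM and a difference of -0.98 ± 0.25 (SE, adjusted p = 0.0282). Its call was lost without GRDim replicate 3, where the difference fell to -0.72, and without each of the 3 GRWT libraries in turn (adjusted p = 0.0606 to 0.0711).

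Of 25 glucocorticoid response genes 2 were higher and 1 was lower, with a median of -0.19. The GR targets Fkbp5 (66.1, 57.5 and 71.6 against 68, 67.2 and 72.7 CPM), Tsc22d3 (39.6, 38.4 and 38.9 against 46.6, 43.5 and 42.8 CPM) and Per1 (10.01, 10.7 and 11.4 against 14.3, 11.6 and 9.15 CPM) were not called, with adjusted p-values of 0.657, 0.199 and 0.635. Slc9a3, the sodium-proton exchanger NHE3, was higher, with 27.9, 30.5 and 31.4 CPM in GRDim mice and 9.67, 10.5 and 16 CPM in GRWT mice and a difference of 1.32 ± 0.16 (SE, adjusted p = 2.26e-04). It was -0.69 with all 22 libraries in the fit, the only called gene of the 79 named whose direction turned in any setting. Tat, a tyrosine aminotransferase made mainly in liver, had 12.2, 7.07 and 3.39 against 2.75, 0.841 and 1.35 CPM. Its order over the GRDim libraries was that of the liver transcripts, whose part in the result was not tested, and its call was lost without GRWT replicate 4 (adjusted p = 0.0608) or without GRWT replicate 5 (adjusted p = 0.0634). Pdk4, a switch of glucose oxidation, was lower (-1.03), a call lost without GRDim replicate 2 or GRWT replicate 4 (adjusted p = 0.0730 and 0.0903). Of 17 circadian clock genes and of 18 genes of the Nrf2 and glutathione system, none was called at these thresholds.

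Lists for other cell types held few called genes. None was called among 12 stem cell, 10 fibroblast, 10 endothelial, 14 enteroendocrine, 7 tuft cell and 9 ileal segment genes tested. Enteroendocrine genes had a median of -0.53, with 5 lower by the adjusted p-value alone and 10 of 14 lower without overlap, against 17.9% of all genes. Of 20 proliferation genes none passed the fold threshold, but 14 were higher by the adjusted p-value alone, and the median was 0.35. Mki67 was at 0.57 (adjusted p = 0.0016) and Top2a at 0.75 (adjusted p = 7.25e-05).

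To see what remained of the genotype difference, the same contrast was taken in mice on normal water, over 3 GRDim and 3 GRWT libraries that were also muscle-rich. All 3 GRDim libraries on water are labelled IEC, as are GRWT replicates 4 and 5, and GRWT replicate 1 is labelled ileum. It shares no library with the zinc contrast, though both come from a fit that shares its estimate of spread. On water 800 genes were higher in GRDim mice (5.02%) and 873 were lower (5.47%). Of those 800, 760 kept their sign on zinc and 309 were called there (38.6%), and the median difference of the 800 was 1.43 on water and 0.79 on zinc. Of the 873, 842 kept their sign and 252 were called (28.9%), with medians of -1.17 on water and -0.67 on zinc. Differences were smaller on zinc for 719 of the 800 and for 824 of the 873, but these genes were chosen for being large on water. Read the other way, 382 of the 388 genes higher on zinc were also positive on water, with a median of 1.36 on zinc and 1.49 on water, and 310 of the 314 lower genes were also negative, with medians of -1.16 and -1.41. No gene was called in opposite directions. In all, 561 genes were called in both drinks, 1112 only on water and 141 only on zinc. A call in one drink and not in the other is no test of a difference between them.

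**Figure D3:**
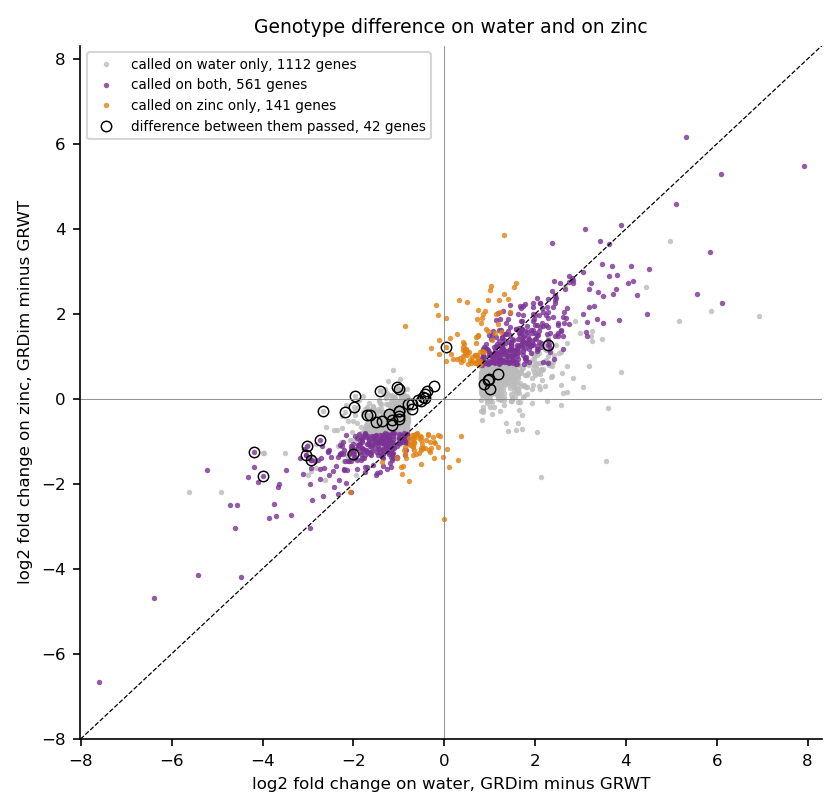
Log2 fold change between GRDim and GRWT mice on zinc (vertical axis) against that on water (horizontal axis), with a point per gene called in either drink, coloured by where it was called, circles around the 42 genes of the interaction and a dashed line at equal differences. The 561 genes called in both drinks lie in the upper right and lower left quadrants.

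Among the genes described, the difference on zinc was near that on water for some and smaller for others. The test of a difference between the drinks, described below, passed for no member of several lists. These are the immunity-related GTPase, guanylate-binding protein, both interferon, both MHC, T cell, Paneth cell and cytochrome P450 lists. Igtp was at 3.17 on zinc and 3.47 on water, Irgm2 at 2.54 and 2.38, and Ccl5 at 2.26 and 2.43. Ido1 was at 2.42 and 2.43, and Pigr at 1.52 and 1.32. Plet1, a surface protein of epithelial progenitors, had 3.84, 3.99 and 9.24 against 1.13, 1.36 and 1.05 CPM on zinc and 108, 124 and 69.2 against 2.05, 1.29 and 0.964 CPM on water. Its difference was 2.26 on zinc and 6.12 on water, but the difference of these differences did not pass the test (-3.86 ± 0.83 (SE, adjusted p = 0.0918)), and its call on zinc was lost without any of GRWT replicates 1, 4 and 5 (adjusted p = 0.0617 to 0.0667). Saa1 fell short too, at 3.46 on zinc and 5.84 on water (-2.38 ± 0.57 (SE, adjusted p = 0.12)).

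The test of the difference itself, the interaction of genotype and drink, passed for 42 of 15947 genes (0.263%), and the p-value before adjustment was under 0.05 for 2471 genes. Of the 42 genes, 40 had a smaller genotype difference on zinc than on water, 32 were called on water (26 lower, 6 higher) and 9 on zinc (7 lower, 2 higher). Slc47a1, an exporter of organic cations, had 1.99, 1.45 and 2.11 CPM in GRDim mice and 17.7, 13.9 and 13.7 CPM in GRWT mice on water. On zinc the levels were 5.94, 6.3 and 6.14 against 12, 14 and 13.4 CPM, so that the genotypes remained apart but by less. Its interaction of 1.92 ± 0.21 (SE, adjusted p = 0.0014) was still past the threshold in each fit without 1 zinc library. Il5ra, a chain of the interleukin-5 receptor, had 0.639, 0.289 and 1.28 against 16.5, 12.4 and 12.6 CPM on water and 4.44, 5.81 and 2.89 against 11.9, 10.9 and 8.77 CPM on zinc, an interaction of 2.93 ± 0.48 (SE, adjusted p = 0.035). Hsd3b3 had 1.14, 0.434 and 1.15 against 19, 12.1 and 12.9 CPM on water, against the values on zinc given above, an interaction of 2.16 ± 0.34 (SE, adjusted p = 0.0261). Cry2, a repressor of the circadian clock, had 9.01, 8.67 and 10.04 against 19.2, 19.1 and 17.3 CPM on water and 12.6, 13.2 and 13.1 against 15.9, 17.3 and 14.2 CPM on zinc, an interaction of 0.72 ± 0.14 (SE, adjusted p = 0.045). The interactions of Il5ra, Hsd3b3 and Cry2 did not pass without GRDim replicates 1 or 2 or GRWT replicate 1, nor did that of Cry2 without GRWT replicate 5 (adjusted p = 0.0527 to 0.131). In these 4 genes every GRDim value was higher on zinc than on water. The drink of the GRDim mice and the tissue label cannot be told apart here, since the GRDim libraries carry the label IEC on water and ileum on zinc.

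In the other direction, Tlr2, a receptor for bacterial lipoproteins, had 22.1, 19.7 and 18.9 CPM in GRDim mice and 3.46, 4.78 and 4.23 CPM in GRWT mice on water. On zinc it had 9.71, 10.6 and 10.4 against 4.45, 3.69 and 4.72 CPM, so that every GRDim value was lower than on water and the genotypes still did not overlap. The interaction was -1.02 ± 0.19 (SE, adjusted p = 0.0442). The interaction of Tlr2 did not pass without GRDim replicates 1 or 2 or GRWT replicates 1 or 5 (adjusted p = 0.0594 to 0.125). The number of interaction genes was unstable. It was 7 without GRDim replicate 1, 5 without GRDim replicate 2, 6 without GRWT replicate 1, 346 without GRDim replicate 3 and 0 with all 22 libraries in the fit.

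**Figure D4:**
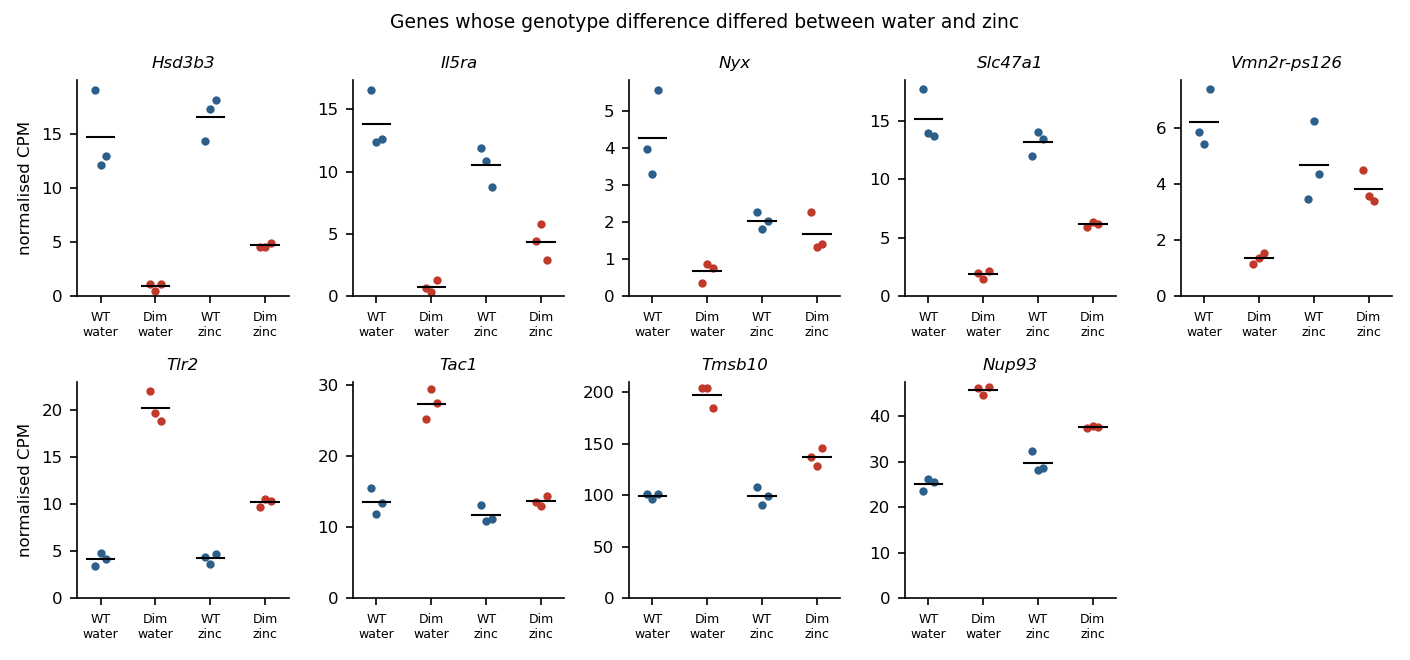
Normalised CPM (linear axis from 0) of genes whose genotype difference differed between water and zinc, with a point per library and a bar at the mean of each group of 3. Slc47a1 is at 1.45 to 2.11 CPM in GRDim mice on water and at 5.94 to 6.30 CPM on zinc, with GRWT mice at 12 to 17.7 CPM throughout.

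The same contrast was also taken in the 5 zinc libraries that the choice of libraries left out, GRDim replicates 4, 5 and 6 and GRWT replicates 2 and 3, which are poor in muscle. Here the GRDim libraries are labelled IEC and both GRWT libraries ileum, so that the genotype and the tissue label cannot be told apart, and the labels run opposite to those of the muscle-rich set. There 6 genes were higher (0.0431%) and 2 were lower (0.0144%) of 13908 tested, and the p-value before adjustment was under 0.05 for 3184. GRWT replicate 3 stood apart from the others, with Slc2a2 at 983 CPM. Its 12 genes of the proximal intestine summed to 25540 CPM, against 1004 to 1239 CPM in the other 4 libraries, and its cytochrome P450 genes to 13340 CPM against 1791 to 2418 CPM. Its ileal segment genes were at 1826 CPM against 13060 to 14740 CPM and its stem cell genes at 216 CPM against 1082 to 1208 CPM. Values without this library are given beside some of the results below. They are not given beside the muscle-poor differences of single genes or the difference of sets of Ubd. Of the 388 genes higher in the muscle-rich libraries 290 were tested, 190 of them were positive (65.5%), 2 were called and the median was 0.37, against a same-sign share of 59.5% for all genes with a positive difference in the muscle-rich libraries. Without GRWT replicate 3, which leaves GRWT replicate 2 alone on its side, 255 of the 290 were positive (87.9%) and the median was 0.53, against a same-sign share of 59.6% for all genes with a positive difference. Of the 314 lower genes 258 were tested, 183 of them were negative (70.9%), 1 was called and the median was -0.59, against a same-sign share of 57.3% for all genes with a negative difference. Without GRWT replicate 3 again 183 were negative, with a median of -0.27, against 55.8% of all such genes.

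The genes called in both sets of libraries were Gbp6, Gbp8 and Gm8615. Gbp6 had 16.3, 8.68 and 8.57 CPM in GRDim mice and 0.139 and 0.199 CPM in GRWT mice in the muscle-poor libraries, a difference of 6.01 (adjusted p = 0.00489). Gbp8 had 25.6, 15.9 and 24.9 CPM in GRDim mice and 0.904 and 1.99 CPM in GRWT mice, a difference of 3.98 (adjusted p = 0.0368). Gm8615, a pseudogene on chromosome 5, was lower there (difference -2.60, adjusted p = 0.0204) as well as in muscle-rich libraries (-2.25), where it had 4.67, 4.55 and 3.53 against 19.97, 19.7 and 21 CPM. It was also lower on water (-2.35). These 3 genes separated the genotypes in both sets.

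With 8 genes called in the muscle-poor libraries, a lost call there says little, and leading genes differed in size. Saa1 was not called but had 21.3, 31.5 and 41.9 CPM in GRDim mice and 3.83 and 0.399 CPM in GRWT mice, a difference of 3.79 (adjusted p = 0.146), and Slc6a14, Abca12 and Cd177 were at 3.34, 2.47 and 2.22 without a call. These differences include GRWT replicate 3, and their size without it is not given. Other genes had smaller differences in the muscle-poor libraries. Igtp had 135, 195 and 222 CPM in GRDim mice and 115 and 153 CPM in GRWT mice, and Irgm2 differed there by 0.18 (adjusted p = 0.588). Ido1 had 114, 119.5 and 159 CPM in GRDim mice and 151 and 124 CPM in GRWT mice. H2-Aa had 946, 833 and 1000.3 CPM in GRDim mice and 859.9 and 695 CPM in GRWT mice. The muscle-rich difference minus the muscle-poor one, tested in a fit of all 22 libraries in 8 groups, was 2.71 (adjusted p = 0.00129) for Igtp, 2.36 (adjusted p = 1.54e-04) for Irgm2, 2.47 (adjusted p = 8.62e-06) for Ido1 and 1.35 (adjusted p = 0.0133) for H2-Aa. Without GRWT replicate 3, which leaves 1 muscle-poor GRWT library on zinc that is assumed to vary like the other groups, the 4 values were 2.46 (adjusted p = 0.0163), 2.35 (adjusted p = 0.00197), 2.59 (adjusted p = 4.46e-05) and 1.47 (adjusted p = 0.0191). Ubd had 115, 120.3 and 196 CPM in GRDim mice and 76.2 and 25 CPM in GRWT mice and a difference of sets of 3.80 (adjusted p = 0.0133). For Ccl5 and Cd8a the difference of sets was 2.54 (adjusted p = 0.00651) and 2.23 (adjusted p = 0.0131), and it did not pass without GRWT replicate 3, at 1.58 (adjusted p = 0.0694) and 1.28 (adjusted p = 0.118). Such a difference passed for 83 of the 388 higher genes and 15 of the 314 lower ones, and for 45 and 11 without GRWT replicate 3. The 388 and 314 genes were chosen for their difference in the muscle-rich libraries, so that these shares cannot be set against the 470 of all 16389 genes in that fit that passed, or the 186 without that library.

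**Figure D5:**
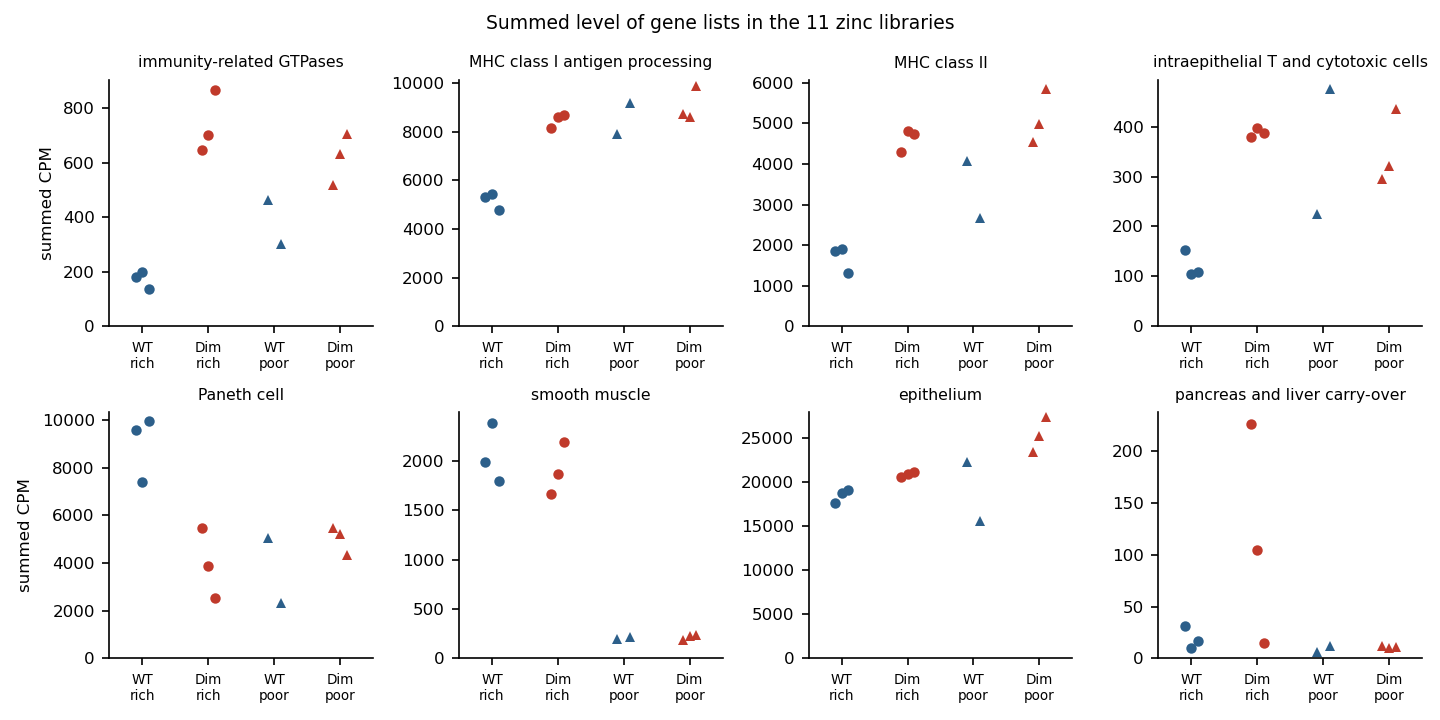
Summed CPM of gene lists (linear axis from 0) in the 11 zinc libraries, by genotype and by muscle content, with a point per library (circles muscle-rich, triangles muscle-poor). The immunity-related GTPases are at 138 to 199 CPM in the muscle-rich GRWT libraries and at 301 CPM or more in all other zinc libraries.

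The summed levels of the lists differed between the sets in more than 1 way. Guanylate-binding proteins summed to 248, 280 and 301 CPM in the GRDim and 164, 160 and 123 CPM in the GRWT muscle-rich libraries, and to 81.3, 78.4 and 99.5 CPM against 34.4 and 22.4 CPM in the muscle-poor ones, without overlap in either set. MHC class II genes summed to 4298, 4815 and 4741 CPM in the muscle-rich GRDim libraries, to 1843, 1906 and 1313 CPM in the muscle-rich GRWT libraries, to 4532, 4985 and 5846 CPM in the muscle-poor GRDim libraries and to 4075 and 2674 CPM in the muscle-poor GRWT libraries, the last value from GRWT replicate 3. T cell genes summed to 379, 397 and 387 CPM in the muscle-rich GRDim and 154, 104 and 109 CPM in the muscle-rich GRWT libraries, and to 296, 322 and 435 CPM against 225 and 475 CPM in the muscle-poor ones. Paneth cell genes summed to 5481, 3881 and 2512 CPM against 9596, 7409 and 9950 CPM in the muscle-rich libraries, and to 5484, 5211 and 4333 CPM against 5035 and 2327 CPM in the muscle-poor ones. MHC class I genes summed to 8145, 8628 and 8687 CPM against 5315, 5420 and 4770 CPM in the muscle-rich libraries. In the muscle-poor ones they summed to 8731, 8619 and 9881 CPM against 7895 and 9208 CPM. Only the last, from GRWT replicate 3, lay within the GRDim range. Their muscle-poor median difference was -0.045, with 9 of 20 positive, and the difference between the sets passed for 12. T cell, Paneth cell and MHC class I genes thus overlapped between the genotypes in the muscle-poor libraries, where they had not in the muscle-rich ones. For T cell genes the overlap came from GRWT replicate 3 alone, as GRWT replicate 2, at 225 CPM, lay below all 3 GRDim libraries, and the number of T cell genes whose difference between the sets passed the test went from 11 to 0 without GRWT replicate 3. The tissue label, the dissection and the muscle content cannot be told apart as the source of this difference between the sets.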

How the data were processed

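Small intestine RNA of GRDim and GRWT mice was sequenced by the authors as stranded single-end libraries. Per the labels and the methods of the study, the authors trimmed reads with Trimmomatic, mapped them to mm10 with HISAT2 2.0.4, counted those mapping to 1 place per gene with featureCounts and deposited raw counts for 54838 Ensembl genes in 22 libraries. The strand setting and the annotation release are not given in the sources used here, so overlapping genes are named as uncertain. Names and positions came from GENCODE vM21 (54809 identifiers matched).

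The fit was edgeR 4.0.16 in R 4.3.3 (TMM, filterByExpr, robust quasi-likelihood F test) on the 12 libraries with over 100 CPM of Myh11 in 4 groups. Myh11 was 298 to 463 CPM in these and 3.22 to 20.5 CPM in the other 10, which had a fit of their own. CPM are normalised unless stated. Adjustment was by Benjamini-Hochberg over all genes tested, with the study's thresholds of 0.05 and 0.8, and by adjusted p-value alone for the interaction. Library totals of 13149951 to 15620744 counts put a floor of 3 counts near 0.2 CPM, and intervals cover counting error only, as reads carry no molecular identifiers.

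The libraries, the 35 lists (522 genes) and the naming rule were chosen with earlier results of these data known. Named were up to 12 genes per direction with the largest called, non-overlapping difference and a mean of at least 1 CPM, genes of prior interest, up to 4 called genes per list and up to 5 interaction genes per direction, of which a few are not reported here. Further members were named after their values were seen. Segments of immunoglobulins and T cell receptors and unnamed loci were left out of the first. The fitting was tested on simulated data. Alternatives were DESeq2 1.42.0, other scalings, filters, samples and covariates, and leaving out each library; the comparison of muscle-rich with muscle-poor libraries and the list counts under each alternative were added after seeing the data.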

Additional observations from a re-analysis of the deposited data

Results flagged for a closer look

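For 10 named genes the difference between GRDim and GRWT mice on zinc differed from that on water by the interaction test, and their values follow as the zinc difference minus the water difference on the log2 scale. Positive values were found for Hsd3b3 (2.16), Il5ra (2.93), Cry2 (0.72), Nyx (2.38), Slc47a1 (1.92) and Vmn2r-ps126 (1.90). Negative values were found for Tlr2 (-1.02), Tac1 (-0.79), Tmsb10 (-0.53) and Nup93 (-0.52). Nyx, which encodes the proteoglycan nyctalopin, had 0.355, 0.867 and 0.767 against 3.96, 3.29 and 5.56 CPM on water and 2.26, 1.33 and 1.41 against 2.26, 1.81 and 2.02 CPM on zinc, so that the genotypes overlapped only on zinc. The pseudogene Vmn2r-ps126 had 1.14, 1.37 and 1.53 against 5.87, 5.42 and 7.42 CPM on water and 4.51, 3.57 and 3.39 against 3.46, 6.27 and 4.35 CPM on zinc. Tac1, which encodes substance P, had 25.3, 29.5 and 27.5 against 15.6, 11.9 and 13.3 CPM on water and 13.6, 13 and 14.5 against 13.1, 10.9 and 11.2 CPM on zinc. Tmsb10, an actin-binding thymosin, and Nup93, a nuclear pore protein, were at 0.99 and 0.87 on water and at 0.46 and 0.34 on zinc. The interactions of Nyx, Vmn2r-ps126, Tac1, Tmsb10 and Nup93 did not pass without GRDim replicate 1, GRDim replicate 2 or GRWT replicate 1 (adjusted p = 0.0527 to 0.137), nor did that of Nyx without GRWT replicate 4 (adjusted p = 0.0503). With the tissue label as covariate Cry2, Hsd3b3, Il5ra, Nup93, Nyx and Tlr2 did not pass (adjusted p = 0.0684 to 0.122). With all 22 libraries in the fit none of the 10 passed. Groups of 3 libraries were too small to look for single outlying values.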

How the results depend on the processing

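The number of genes higher and lower in GRDim mice on zinc (388 and 314) stayed within 1.5 times under DESeq2, the other scalings, both filters, the covariates, the fit of 6 libraries and that of 22, though in the last only 213 of the 388 and 133 of the 314 genes were still called. It was 205 higher with only the libraries labelled ileum, and 1564 higher and 1435 lower by the adjusted p-value alone. Leaving out 1 zinc library gave 294 to 560 higher and 212 to 313 lower genes, the 560 and 282 lower without GRWT replicate 1 and the 212 without GRDim replicate 3. For the interaction, 42 genes became 307 with DESeq2, 121 with library totals, 269 with no filter, 26 with the tissue label as covariate and 0 with all 22 libraries, and 5 to 346 when 1 library was left out (5 without GRDim replicate 2, 346 without GRDim replicate 3). In the muscle-poor libraries, 6 higher and 2 lower genes became 91 and 647 with DESeq2, and 3 to 2392 and 0 to 2159 when 1 library was left out, the highest values without GRWT replicate 2, which leaves GRWT replicate 3 alone. The cause of these shifts was not tested. Among named genes the difference turned its sign for Nr3c1 (0.011 with the tissue label, 0.076 with ileum labels only), Dennd5b (-0.098 to 0.018 when 1 library was left out, positive without GRDim replicate 3), Fkbp5 (0.44) and Slc9a3 (-0.69) with all 22 libraries, Per1 (-0.27 to 0.045, positive without GRWT replicate 1) and Vmn2r-ps126 (0.14 with ileum labels only). Of 79 named genes called, 41 kept their call in every other setting in which they were fitted (at most 16), and 64 in all 6 that left out a library. The share of promoters with a match in the whole 300-base window was 13.9% (ISRE) and 21.1% (GAS) for genes called higher, against 3.95% and 8.38% of all. No paired analysis was possible because the compared groups share only the replicate number 1. Genes under about 1 CPM rest on few counts.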

Other observations

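Some gene families were looked at after their values were seen and are given no test. Of 11 retinol dehydrogenase genes tested, 5 were lower and none was higher. Rdh7 had 22.4, 19.96 and 14.6 CPM in GRDim mice and 43.8, 59.8 and 50.02 CPM in GRWT mice, a difference of -1.43 ± 0.17 (adjusted p = 2.51e-04), and the alcohol dehydrogenase Adh1 had 29.1, 27.5 and 12 CPM in GRDim mice and 80.2, 101 and 75.4 CPM in GRWT mice, a difference of -1.91 ± 0.28 (adjusted p = 0.00224). Of 12 apolipoprotein L genes tested, 5 were higher and 1 was lower, with Apol7b at 0.602, 1.19 and 1.2 against 0.141, 0.194 and 0.225 CPM. Of 25 chemokine genes 8 were higher and none was lower.

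A pair of genes of striated muscle, picked after their values were seen, was higher in GRDim mice at low levels. Actn2 had 1.43, 1.75 and 1.76 against 0.282, 0.776 and 0.60 CPM (1.55 ± 0.34 (adjusted p = 0.00497)), and Ryr1, the calcium channel of skeletal muscle, had 1.5, 2.24 and 2.05 against 0.917, 0.453 and 0.60 CPM (1.55 ± 0.32 (adjusted p = 0.00402)). Kbtbd13 and Hcn4, also of striated muscle or heart, were lower (-1.05 and -1.27). The smooth muscle list, which includes Myh11, held no called gene. Ttr, a liver transcript, had 12.2, 8.89 and 3.17 against 2.05, 1.1 and 0.75 CPM, and its call was lost without GRWT replicate 4 (adjusted p = 0.0536). Summed over a list of 12 liver and pancreas genes, the GRDim libraries had 233, 107 and 14.2 CPM and the GRWT libraries 29.8, 9.51 and 16.7 CPM, while the pancreatic members Cpa1, Prss2, Ctrb1 and Pnlip had at most 3 counts in any of the 6 libraries.

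Chromosomes 12 and 6 held the highest shares of called genes, 63 of 671 (9.39%) and 73 of 911 (8.01%), against 4.4% over all. Both carry immunoglobulin loci. Within 10 Mb on either side of Nr3c1, 3 of 136 genes tested were called on zinc.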
